A study of Homo sapiens with 6 samples.

Results

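The genes described here encode the cytoplasmic translation initiation factors (EIF1 to EIF6 families) and elongation factors (EEF1 and EEF2 families) together with their direct regulators, among them the eIF4E-binding proteins. Members were chosen by symbol among protein-coding genes: a symbol starting with EIF1 to EIF6, EEF1 or EEF2, without the eIF2 kinases EIF2AK1 to EIF2AK4 and without readthrough genes, whose names hold a hyphen. The rule used no measured value. It found 65 genes in GENCODE 29, of which 64 were among the 60658 genes listed for each library. EEF1AKMT4 was not analysed here. EIF1AY lies on the Y chromosome and was counted with the members, but its values are not given.

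RNA of 2 human prostate cancer cell lines was sequenced, with 1 library for each of 6 conditions. C4-2B MDVR is a derivative of C4-2B made resistant to enzalutamide, a drug against prostate cancer, and was kept in medium with 20 µM enzalutamide; CWR22Rv1 cells were kept without it. For 48 h, cells of each line received vehicle (DMSO), apoptozole (APO, 10 µM) or VER155008 (VER, 10 µM). Both compounds inhibit the chaperone HSP70, and the study asked what HSP70 inhibition does to resistant cells. The source field of the C4-2B MDVR libraries names LNCaP-C4-2B and another field calls the cells parental, whereas their titles, followed here, name C4-2B MDVR. The labels name no clone. Because no condition has a replicate, no difference below has a replicate check, an SD or a p-value.

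The deposited value is FPKM, a fragment count corrected for the length of the transcript and for library size, so levels can be set side by side between genes. Read totals of the single libraries were not used here. Relative depth was taken as the most frequent ratio of FPKM in C4-2B MDVR with DMSO to FPKM in another library. Genes between 0.001 and 0.05 FPKM in both libraries were used. With C4-2B MDVR with DMSO set to 1, the others lay between 1.14 and 1.64, highest with APO in C4-2B MDVR. Genes of the mitochondrial chromosome held 14.8% to 16.4% of all FPKM in C4-2B MDVR. In CWR22Rv1 the share was 10.4% with APO and 25.7% in both other libraries. Of the prostate and epithelial markers KLK3, KLK2, HOXB13, EPCAM, KRT8 and KRT18, each was above 2 FPKM in every library. PTPRC, of blood cells, was at most 0.03 FPKM, PECAM1, of endothelium, was listed at 0 throughout, and COL1A1, of fibroblasts, lay between 3.32 and 10.8 FPKM. The part of mitochondrial share and COL1A1 in the results was not tested. In bulk RNA, fewer cells of a type and less RNA per cell cannot be told apart.

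Translation starts when eIF4F (the cap-binding protein eIF4E, the scaffold eIF4G and the helicase eIF4A) loads a 43S complex, which holds the 40S subunit with eIF1, eIF1A, eIF3, eIF5 and the eIF2–GTP–initiator tRNA complex, onto the capped end of an mRNA. Hypophosphorylated 4E-BPs, encoded by EIF4EBP1 to EIF4EBP3, hold eIF4E away from eIF4G, and the kinase mTORC1 releases this brake. eIF2B recharges eIF2 with GTP and is blocked when eIF2 is phosphorylated. During elongation eEF1A brings aminoacyl-tRNA to the ribosome, the eEF1B complex recharges eEF1A, and eEF2 moves the ribosome along. Many mRNAs of this machinery begin with a C followed by a run of pyrimidines, the 5′ terminal oligopyrimidine (TOP) element, through which mTORC1 controls their translation.

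Start sequences of 12 members are shown because risers and fallers are counted below for members with and without a TOP start. They come from RefSeq promoter windows (GRCh38.p14), which were matched for 51 of 64 members, and each covers 25 bases before the annotated start and 25 from it, 5′ to 3′ on the strand of the gene. For 6 members with a TOP start, capitals mark the C and the unbroken run of C and T at the start.
EEF1A1: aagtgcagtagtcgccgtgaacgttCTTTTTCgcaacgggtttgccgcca
EEF1B2: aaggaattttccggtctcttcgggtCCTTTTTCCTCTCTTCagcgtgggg
EEF2: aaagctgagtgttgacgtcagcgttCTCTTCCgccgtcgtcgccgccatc
EIF3F: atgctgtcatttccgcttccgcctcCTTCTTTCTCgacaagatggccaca
EIF2D: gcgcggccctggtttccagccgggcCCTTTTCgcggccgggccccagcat
EIF4B: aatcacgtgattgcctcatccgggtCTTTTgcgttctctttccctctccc
The EEF1A1 window is chr6:73521008-73521057 on the minus strand. The EEF1B2 window is chr2:206159870-206159919 on the plus strand. The EEF2 window is chr19:3985439-3985488 on the minus strand. The EIF3F window is chr11:7987312-7987361 on the plus strand. The EIF2D window is chr1:206612441-206612490 on the minus strand. The EIF4B window is chr12:53006431-53006480 on the plus strand.

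The 5 members shown next have no TOP start and fell with at least 3 of the 4 treatments. Members without one, these 5 included, went both ways. In C4-2B MDVR, 9 of 36 rose and 14 fell with APO, and 5 and 20 with VER. In CWR22Rv1, 14 of 37 rose and 12 fell with APO, and 4 and 18 with VER. Of all genes compared, 37.7%, 35.6%, 35.6% and 32.1% rose and 35.4%, 34.9%, 39.2% and 32.3% fell in the same order. EIF1, EIF4E3 and EIF4EBP3, also without one, rose with all 4 treatments. Because the 5 are shown as fallers without a TOP start, they cannot tell whether start letters and direction go together. In EIF4E, EIF3B and EIF2B5 a C followed by 4 C or T begins within 20 bases of the start. Capitals mark the first 5 bases from the annotated start, where the pyrimidine run is missing.
EIF4E: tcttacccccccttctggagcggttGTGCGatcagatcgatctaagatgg
EIF4A1: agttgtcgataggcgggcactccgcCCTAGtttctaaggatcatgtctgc
EIF5B: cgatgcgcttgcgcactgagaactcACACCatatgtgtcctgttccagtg
EIF3B: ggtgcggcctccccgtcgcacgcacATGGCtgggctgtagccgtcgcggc
EIF2B5: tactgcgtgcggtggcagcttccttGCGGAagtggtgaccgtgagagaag
The EIF4E window is chr4:98929109-98929158 on the minus strand. The EIF4A1 window is chr17:7572800-7572849 on the plus strand. The EIF5B window is chr2:99337364-99337413 on the plus strand. The EIF3B window is chr7:2354802-2354851 on the plus strand. The EIF2B5 window is chr3:184135333-184135382 on the plus strand. EIF4E3 is shown for another reason. Of the 51 members with a matched window, it was the sole one with the letters of a C/EBP-ATF element, TGATGNAAN. Windows ran from 250 bases before to 50 after the start and were searched on both strands. EIF4EBP1 had no matched window, so it was not searched for these letters. In EIF4E3 they are in capitals and lie in 1 of its 3 windows.
EIF4E3: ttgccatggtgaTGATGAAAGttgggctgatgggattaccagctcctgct
The EIF4E3 window is chr3:71729094-71729143 on the minus strand. Such letters occurred in the windows of 4.45% of all 27305 genes of the promoter table. The E-box letters CACGTG occurred in 12 of 51 members (23.5%) and in 8.78% of all genes. A match is a description of letters and not of a bound site.

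EIF4EBP1 (ENSG00000187840), which encodes 4E-BP1, rose in every treated library. Its level in C4-2B MDVR was 95.5, 231 and 204 FPKM with DMSO, APO and VER, and in CWR22Rv1 65.4, 225 and 102 FPKM. All treated libraries of a line were above its DMSO library, and VER in CWR22Rv1 was the nearest to it. On the log2(FPKM + 0.1) scale, used for every difference below, EIF4EBP1 rose in C4-2B MDVR by 1.27 (APO) and 1.09 (VER). In CWR22Rv1 it rose by 1.78 with APO and 0.63 with VER. A gene is said to have risen or fallen where the difference passed 1.2-fold (0.263 on the log2 scale). The APO and VER differences of a line share its DMSO library, so they are not independent of each other.

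The 3 4E-BP genes did not move together. EIF4EBP3 was at 40.9, 74.8 and 66.0 FPKM with DMSO, APO and VER in C4-2B MDVR and at 18.9, 50.1 and 25.4 FPKM in CWR22Rv1. It rose by 0.87, 0.69, 1.40 and 0.43 in the order APO and VER in C4-2B MDVR, then APO and VER in CWR22Rv1. Its reads may be shared with the same-strand readthrough gene ANKHD1-EIF4EBP3, listed at 4.08 to 9.44 FPKM. EIF4EBP2 stayed within 1.2-fold in C4-2B MDVR, where it was 30.4, 27.6 and 32.6 FPKM. In CWR22Rv1 it fell from 29.5 FPKM to 18.6 with APO and 21.9 with VER. EIF4ENIF1, the eIF4E transporter that carries eIF4E into the nucleus and into mRNA decay granules, fell by 0.69 and 0.40 with APO in C4-2B MDVR and CWR22Rv1. With VER its log2 difference was -0.26 in C4-2B MDVR and -0.27 in CWR22Rv1, at the threshold itself, and both calls were lost when libraries were rescaled to a median ratio of 1 (-0.25 and -0.22).

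Of the eIF4F genes, EIF4E, EIF4G1 and EIF4A1 were lower in each treated library than in DMSO. Among 7 genes of eIF4F and its helpers (with EIF4A2, EIF4G3, EIF4B and EIF4H), 1 rose and 3 fell with each inhibitor in C4-2B MDVR. In CWR22Rv1, 0 rose and 2 fell with APO, and 1 and 4 with VER. Of all genes compared, 37.7%, 35.6%, 35.6% and 32.1% rose and 35.4%, 34.9%, 39.2% and 32.3% fell, APO before VER in each line. EIF4E was 57.7, 38.7 and 35.7 FPKM with DMSO, APO and VER in C4-2B MDVR and 60.03, 49.6 and 40.7 FPKM in CWR22Rv1. It fell with each treatment, by 0.57 and 0.69 in C4-2B MDVR and by 0.28 and 0.56 in CWR22Rv1, although the fall with APO in CWR22Rv1 was 0.16, within 1.2-fold, after rescaling to the same sum. EIF4G1, the main scaffold, was 356, 215 and 207 FPKM in C4-2B MDVR and 159, 79.7 and 90.8 FPKM in CWR22Rv1. Both treated libraries of each line were well below DMSO, with falls of 0.72 and 0.78 in C4-2B MDVR and of 0.998 and 0.81 in CWR22Rv1. EIF4A1, the helicase, was 955, 579 and 514 FPKM in C4-2B MDVR and 501, 443 and 380.1 FPKM in CWR22Rv1. In C4-2B MDVR it fell by 0.72 (APO) and 0.89 (VER), and by 0.40 with VER in CWR22Rv1, where APO gave -0.18.

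Ratios within a library do not depend on how libraries are scaled. In the order DMSO, APO and VER, EIF4EBP1 over EIF4E was 1.66, 5.97 and 5.71 in C4-2B MDVR. The same ratio in CWR22Rv1 was 1.09, 4.54 and 2.497. It was higher in each treated library than in DMSO of the same line. EIF4EBP1 over EIF4G1 went from 0.27 to 1.07 and 0.99 in C4-2B MDVR, and from 0.41 to 2.82 and 1.12 in CWR22Rv1.

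**Figure D1:**
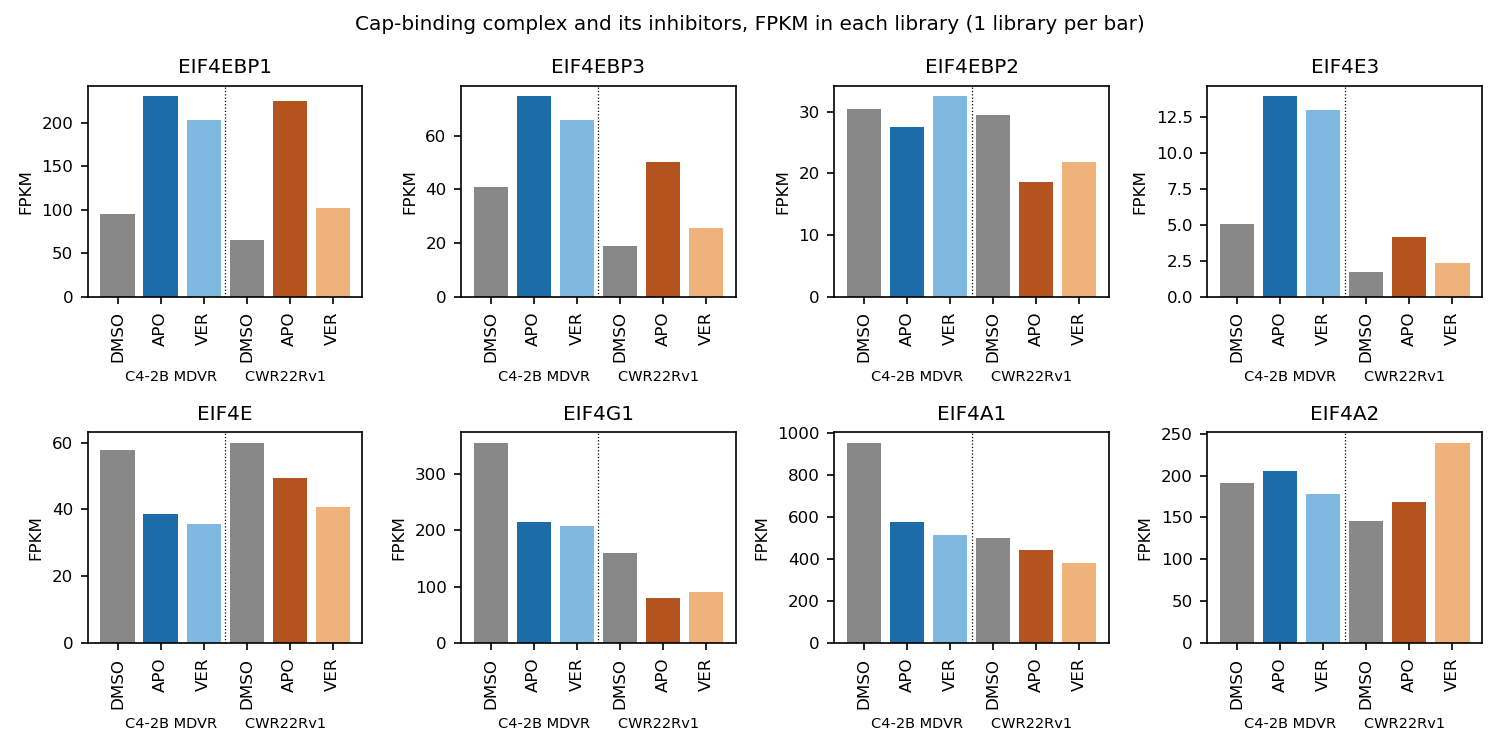
Level in FPKM (y axis, from 0, own scale for each gene) of 8 genes of the cap-binding step in each of the 6 libraries, with 1 library per bar and no error bars. EIF4EBP1, EIF4EBP3 and EIF4E3 are higher, and EIF4E, EIF4G1 and EIF4A1 lower, in each treated library than in DMSO of the same line.

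Paralogs of the eIF4 factors differed from the main forms. EIF4A2, a second helicase gene, was 191, 205 and 178 FPKM in C4-2B MDVR, within 1.2-fold of DMSO. In CWR22Rv1 it was 146, 168 and 239 FPKM with DMSO, APO and VER, and rose by 0.72 with VER. EIF4A1 over EIF4A2 was therefore lower in each treated library, at 4.998, 2.82 and 2.89 in C4-2B MDVR and 3.44, 2.64 and 1.59 in CWR22Rv1. EIF4A3, the helicase of the exon junction complex, fell in C4-2B MDVR by 0.35 (APO) and 0.68 (VER) and by 0.39 with VER in CWR22Rv1, with -0.24 for APO there. EIF4G3, the other full-length scaffold gene, was 19.0, 24.4 and 22.9 FPKM in C4-2B MDVR and 17.1, 19.6 and 14.7 FPKM in CWR22Rv1. Its rise of 0.36 with APO in C4-2B MDVR did not pass 1.2-fold after rescaling to the same sum (0.21). EIF4G1 over EIF4G3 went from 18.7 to 8.81 and 9.04 in C4-2B MDVR and from 9.32 to 4.06 and 6.19 in CWR22Rv1.

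EIF4E3, which encodes an eIF4E relative that binds the cap in an atypical way, was low but rose most in C4-2B MDVR. Its level was 5.05, 14.0 and 13.0 FPKM with DMSO, APO and VER in C4-2B MDVR and 1.70, 4.15 and 2.34 FPKM in CWR22Rv1. The rises were 1.45 and 1.34 in C4-2B MDVR and 1.24 and 0.44 in CWR22Rv1. EIF4E2, which encodes the repressive cap-binding protein 4EHP, was 47.9, 40.9 and 39.5 FPKM in C4-2B MDVR and 39.9, 33.4 and 42.9 FPKM in CWR22Rv1. It fell by 0.28 with VER in C4-2B MDVR, and its other differences were -0.23 with APO there and -0.25 and 0.11 in CWR22Rv1. EIF4G2 (DAP5), which supports cap-independent initiation, rose by 0.41 with APO in CWR22Rv1 and fell by 0.47 and 0.39 with VER in C4-2B MDVR and CWR22Rv1. The RNA-binding helpers EIF4B and EIF4H stayed within 1.2-fold, with the exception of EIF4H with VER in CWR22Rv1 (-0.34). EIF4E1B, an oocyte form, was listed at 0 in C4-2B MDVR and was at most 1.06 FPKM in CWR22Rv1.

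Among the elongation factors, EEF1A1 alone made up 21.1% to 36.0% of the FPKM of the 64 members, which together made up 1.34% to 2.17% of all FPKM. It was at 2736, 4492 and 3726 FPKM with DMSO, APO and VER in C4-2B MDVR and at 2609, 5058 and 3622 FPKM in CWR22Rv1. The order APO over VER over DMSO held in both lines, with rises of 0.72 and 0.45 in C4-2B MDVR and of 0.96 and 0.47 in CWR22Rv1. Rows for EEF1A1 pseudogenes summed to between 3.46% and 4.20% of the EEF1A1 value.

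EEF1A2, the form of muscle and neurons that is also found in tumours, did not follow its paralog. It was 313, 335 and 278 FPKM in C4-2B MDVR and 93.0, 81.4 and 72.4 FPKM in CWR22Rv1, and its differences were 0.10, -0.17, -0.19 and -0.36 in the order used above. EEF1A1 over EEF1A2 rose from 8.74 to 13.4 with either inhibitor in C4-2B MDVR and from 28.1 to 62.2 and 50.04 in CWR22Rv1. EEF1B2, the exchange factor eEF1Bα, was 272, 444 and 378 FPKM in C4-2B MDVR and 327, 539 and 445 FPKM in CWR22Rv1. It rose by 0.71 and 0.47 in C4-2B MDVR and by 0.72 and 0.45 in CWR22Rv1. The other subunits of the same complex rose less or not at all. EEF1G, the scaffold subunit, was 1239, 1534 and 1407 FPKM in C4-2B MDVR and 790.1, 1138 and 836 FPKM in CWR22Rv1. It rose with APO in both lines (0.31 and 0.53), but in C4-2B MDVR the rise was 0.16 after rescaling to the same sum. EEF1D, the second exchange subunit, was 371, 363 and 372 FPKM in C4-2B MDVR and 167, 136 and 153 FPKM in CWR22Rv1, where it fell by 0.29 with APO. That fall was 0.18 after rescaling to the same sum.

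EEF2, the translocase, was 1023, 1222 and 1298 FPKM in C4-2B MDVR and 507, 784 and 548 FPKM in CWR22Rv1. It rose by 0.34 with VER in C4-2B MDVR and by 0.63 with APO in CWR22Rv1, while APO in C4-2B MDVR gave 0.26, just under the threshold, and VER in CWR22Rv1 gave 0.11. EEF2K encodes the kinase that inactivates eEF2. Its level was 9.30, 3.55 and 6.86 FPKM in C4-2B MDVR and 14.4, 7.69 and 15.2 FPKM in CWR22Rv1. APO lowered it by 1.36 in C4-2B MDVR, the largest fall in the 4 comparisons among members with a mean above 1 FPKM, and by 0.90 in CWR22Rv1. With VER it fell by 0.43 in C4-2B MDVR and differed by 0.08 in CWR22Rv1. Over the 6 elongation factor genes, 3 rose and 0 fell with APO in C4-2B MDVR (median 0.28), and 3 rose and 0 fell with VER there (0.26). In CWR22Rv1, 4 rose and 1 fell with APO (0.58), and 2 rose and 1 fell with VER (0.10). Of all genes compared, 37.7%, 35.6%, 35.6% and 32.1% rose and 35.4%, 34.9%, 39.2% and 32.3% fell in the same order.

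Enzymes that modify the elongation factors went in several directions. EEF2KMT, a lysine methyltransferase of eEF2, fell by 0.73, 0.58, 0.58 and 0.78 in the 4 comparisons. EEF1AKMT3, which methylates eEF1A, was 5.86, 7.02 and 14.6 FPKM in C4-2B MDVR, where it rose by 1.30 with VER and differed by 0.25 with APO. In CWR22Rv1 it was 5.60, 5.89 and 8.07 FPKM and rose by 0.52 with VER. EEF1AKMT1 was 2.33, 1.49 and 1.44 FPKM in C4-2B MDVR and 7.74, 9.60 and 7.33 FPKM in CWR22Rv1. EEF1AKMT2 was between 10.6 and 12.8 FPKM in all 6 libraries. EEF1E1, part of the multi-tRNA synthetase complex, fell by 0.29 with VER in C4-2B MDVR and gave 0.09 and 0.15 with APO in the 2 lines and -0.25 with VER in CWR22Rv1.

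In the 43S complex, the factors of start codon choice included some of the largest rises. EIF1, the guardian of AUG selection, was 513, 976 and 716 FPKM with DMSO, APO and VER in C4-2B MDVR and 383, 1125 and 535 FPKM in CWR22Rv1. It rose by 0.93 and 0.48 in C4-2B MDVR and by 1.55 and 0.48 in CWR22Rv1, so that APO was the highest library in both lines. EIF1B, its near relative, was 78.1, 93.9 and 72.7 FPKM in C4-2B MDVR and 33.2, 57.6 and 37.9 FPKM in CWR22Rv1, where it rose by 0.79 with APO. Its difference of 0.26 with APO in C4-2B MDVR lay at the threshold and was lost after each rescaling. EIF5, which makes eIF2 hydrolyse its GTP, was 169, 270.0 and 194 FPKM in C4-2B MDVR and 92.8, 212 and 75.3 FPKM in CWR22Rv1. APO raised it by 0.67 and 1.19, whereas VER gave 0.20 in C4-2B MDVR and a fall of 0.30 in CWR22Rv1. EIF1AX fell in C4-2B MDVR (0.31 and 0.44) and differed by -0.04 and -0.21 in CWR22Rv1. EIF1AD, an eIF1A-like protein of ribosome assembly, fell by 0.30, 0.31, 0.47 and 0.46.

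The 3 subunits of eIF2 went apart. EIF2S1, the α subunit that carries the regulatory phosphorylation site, was 115, 68.2 and 55.4 FPKM in C4-2B MDVR and 54.2, 75.4 and 41.3 FPKM in CWR22Rv1. It fell by 0.75 and 1.05 in C4-2B MDVR, rose by 0.47 with APO in CWR22Rv1 and fell by 0.39 with VER there. EIF2S2, the β subunit, was 72.2, 129 and 92.5 FPKM in C4-2B MDVR and 49.9, 109 and 59.8 FPKM in CWR22Rv1. It rose by 0.84 and 0.36 in C4-2B MDVR and by 1.12 with APO in CWR22Rv1, with 0.26 for VER, just under the threshold. EIF2S3, the γ subunit that binds GTP and the initiator tRNA, was 110.0, 114 and 124 FPKM in C4-2B MDVR and 64.4, 47.3 and 79.5 FPKM in CWR22Rv1. It stayed within 1.2-fold in C4-2B MDVR. In CWR22Rv1 it fell by 0.44 with APO and rose by 0.31 with VER, a rise that was 0.24 after rescaling to the same sum. The ratio of EIF2S2 to EIF2S1 was 0.63, 1.898 and 1.67 in C4-2B MDVR and 0.92, 1.44 and 1.45 in CWR22Rv1. It was below 1 in both DMSO libraries and above 1 in every treated one. The other pairs of subunits had no such split. EIF2S2 over EIF2S3 was 0.66, 1.14 and 0.75 in C4-2B MDVR and 0.78, 2.30 and 0.75 in CWR22Rv1. EIF2S3 over EIF2S1 was 0.96, 1.67 and 2.24 in C4-2B MDVR and 1.19, 0.63 and 1.93 in CWR22Rv1. EIF2S3B, a copy of EIF2S3, was at most 0.09 FPKM.

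eIF2B, the exchange factor of eIF2, has 5 subunits, and they differed as well. EIF2B5, the catalytic ε subunit, was 52.5, 35.2 and 33.3 FPKM in C4-2B MDVR and 36.0, 23.2 and 26.8 FPKM in CWR22Rv1. It was below DMSO in each treated library, by 0.57 and 0.65 in C4-2B MDVR and 0.63 and 0.42 in CWR22Rv1. EIF2B2, the β subunit, was 37.2, 62.0 and 39.8 FPKM in C4-2B MDVR and 20.4, 32.2 and 20.7 FPKM in CWR22Rv1, and rose with APO alone, by 0.73 and 0.66. EIF2B3 was 18.3, 18.7 and 14.4 FPKM in C4-2B MDVR and 13.5, 17.5 and 9.68 FPKM in CWR22Rv1, and fell with VER by 0.34 and 0.48. It rose by 0.37 with APO in CWR22Rv1, which was 0.22 after rescaling to the same sum outside the mitochondrial chromosome. EIF2B4 was 29.7, 26.5 and 22.1 FPKM in C4-2B MDVR and 27.5, 23.8 and 21.9 FPKM in CWR22Rv1, and fell with VER by 0.42 and 0.33. EIF2B1, of the regulatory part, was 28.7, 22.8 and 30.4 FPKM in C4-2B MDVR and 35.5, 30.1 and 35.2 FPKM in CWR22Rv1, and passed 1.2-fold with APO in C4-2B MDVR (-0.33). The median over the 5 genes was -0.16, -0.34, -0.21 and -0.33. EIF2D, a factor that can place tRNA on the ribosome without eIF2, was 15.7, 20.8 and 20.3 FPKM in C4-2B MDVR and 20.5, 39.1 and 28.0 FPKM in CWR22Rv1. It rose by 0.40, 0.37, 0.93 and 0.44, and the first of these was 0.26 after rescaling to the same sum. EIF2A, another such factor, stayed within 1.2-fold in all 4 comparisons.

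eIF3 is the largest initiation factor and bridges the 40S subunit and eIF4G. Of its 14 genes, 6 rose and 2 fell with APO in C4-2B MDVR and 3 rose and 2 fell with VER. In CWR22Rv1, 10 rose and 1 fell with APO and 4 rose and 2 fell with VER. Of all genes compared, 37.7% rose and 35.4% fell with APO in C4-2B MDVR, and 35.6% and 34.9% with VER. The shares in CWR22Rv1 were 35.6% and 39.2% with APO and 32.1% and 32.3% with VER. The medians of the eIF3 genes were 0.22, -0.0005, 0.46 and 0.03. The median for APO in C4-2B MDVR was 0.07 after rescaling to the same sum, that for VER in CWR22Rv1 turned to -0.03, and that for VER in C4-2B MDVR to 0.02 at a median ratio of 1. EIF3B, a core subunit, was 180.1, 99.7 and 107 FPKM in C4-2B MDVR and 137, 92.5 and 92.7 FPKM in CWR22Rv1. It was the sole subunit to fall in all 4 comparisons, by 0.85 and 0.75 in C4-2B MDVR and by 0.56 with each inhibitor in CWR22Rv1. In relation to the median subunit of the same library it went from 0.98 to 0.42 and 0.55 in C4-2B MDVR and from 1.16 to 0.54 and 0.69 in CWR22Rv1.

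EIF3F, EIF3H and EIF3L rose in all 4 comparisons. EIF3F and EIF3H are MPN-domain subunits of the outer module. EIF3H was 273, 352 and 331 FPKM in C4-2B MDVR and 118, 241 and 173 FPKM in CWR22Rv1, with rises of 0.37, 0.28, 1.04 and 0.55. EIF3F was 179, 258 and 242 FPKM in C4-2B MDVR and 119, 177 and 149.5 FPKM in CWR22Rv1, with rises of 0.53, 0.44, 0.57 and 0.33. The treated libraries lay above DMSO for both genes in both lines. EIF3L was 188, 229 and 227 FPKM in C4-2B MDVR and 114, 169 and 146 FPKM in CWR22Rv1, with rises of 0.28, 0.27, 0.57 and 0.36. After rescaling to the same sum, APO in C4-2B MDVR gave 0.13 for EIF3L and 0.22 for EIF3H, both within 1.2-fold. EIF3C and EIF3CL are near-identical copies whose reads cannot be assigned with certainty. They were listed at 1.81 to 6.42 FPKM, whereas the other 12 subunits lay between 39.5 and 352 FPKM, so their levels and changes are uncertain.

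**Figure D2:**
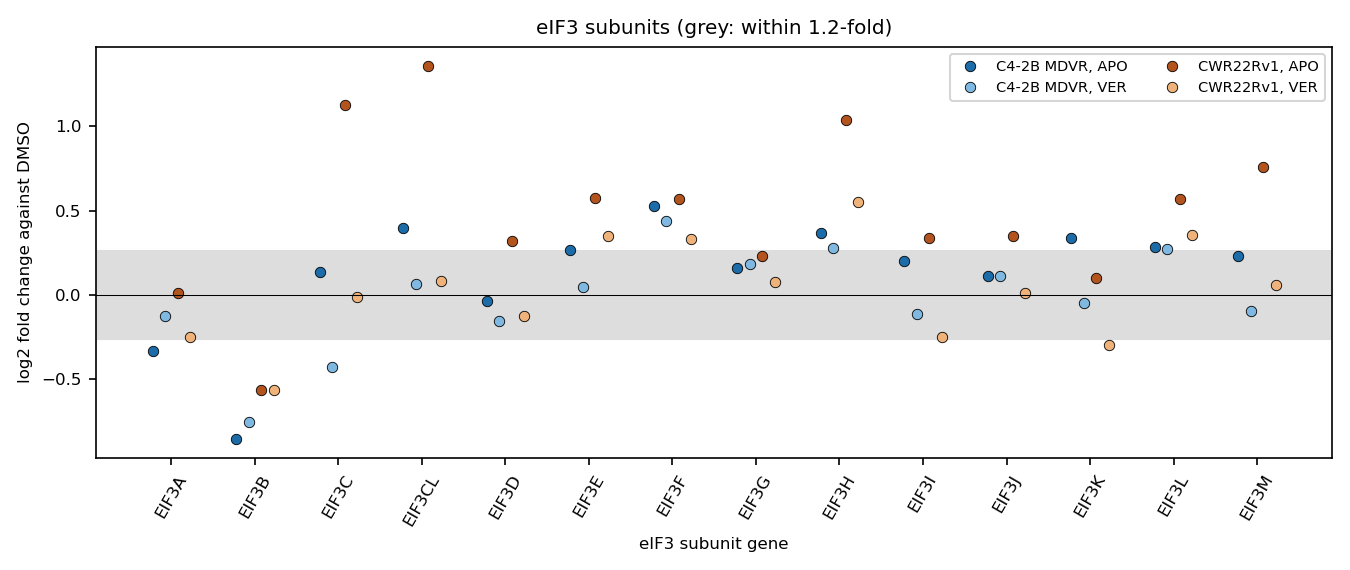
Log2 fold change against DMSO (y axis) of the 14 eIF3 subunit genes (x axis) in the 4 comparisons, with 1 point per gene and comparison and the range within 1.2-fold in grey. EIF3B lies below the grey range in all 4, EIF3F, EIF3H and EIF3L lie above it in all 4, and EIF3C and EIF3CL are uncertain copies.

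EIF5B and EIF5A, which act at the end of initiation and in peptide bond formation, fell in all 4 comparisons. EIF5B, the GTPase that joins the 60S subunit, was 30.1, 20.6 and 18.4 FPKM in C4-2B MDVR and 29.8, 22.7 and 21.9 FPKM in CWR22Rv1. It fell by 0.55 and 0.70 in C4-2B MDVR and by 0.39 and 0.44 in CWR22Rv1. EIF5A, which carries hypusine and relieves stalled ribosomes, was 592, 401 and 349 FPKM in C4-2B MDVR and 593, 429.5 and 396 FPKM in CWR22Rv1. Its falls were 0.56, 0.76, 0.46 and 0.58. The paralog EIF5A2 was 6.01, 7.31 and 5.31 FPKM in C4-2B MDVR and 1.31, 1.14 and 0.639 FPKM in CWR22Rv1, where it fell by 0.94 with VER from a level near 1 FPKM. EIF5AL1, an EIF5A-like copy, was at most 0.22 FPKM in any library. EIF6, which keeps the 60S subunit apart from the 40S, rose by 0.42 with APO in CWR22Rv1 and stayed within 1.2-fold in the other 3 comparisons.

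Over all members, both rises and falls were counted in every comparison. With APO in C4-2B MDVR, 61 of 64 members passed the filter (a value above 0.1 FPKM in any of the line's 3 libraries), and of these, 20 rose (32.8%), 17 fell (27.9%) and 24 stayed within 1.2-fold. Among all genes compared, 37.7% rose and 35.4% fell, and among genes averaging 10 FPKM or more 34.3% rose and 31.5% fell. This split depended on the scaling: 10 rose and 21 fell after rescaling to the same sum. With VER in C4-2B MDVR, 15 of 61 rose (24.6%) and 22 fell (36.1%), against 35.6% and 34.9% of all genes and 30.8% and 32.3% of those of at least 10 FPKM. With APO in CWR22Rv1, 28 of 63 rose (44.4%) and 15 fell (23.8%), against 35.6% and 39.2% of all genes and 35.6% and 33.6% of those of at least 10 FPKM. After rescaling to the same sum outside the mitochondrial chromosome, 22 rose and 22 fell. With VER in CWR22Rv1, 16 of 63 rose (25.4%) and 21 fell (33.3%), against 32.1% and 32.3% of all genes and 24.9% and 28.3% of those of at least 10 FPKM. Median differences of the members were 0.10, -0.09, 0.20 and -0.01, beside medians over all genes between -0.01 and 0. The first of these turned to -0.0482 after rescaling to the same sum.

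Of 61 members compared in both lines, 10 rose (16.4%) and 9 fell (14.8%) in all 4 comparisons with DMSO. Among all 18059 genes compared in both lines, 9.59% rose and 11.3% fell in all 4, and among those averaging 10 FPKM or more 10.1% and 11.9% did. The risers were EIF4EBP1, EIF4EBP3, EIF4E3, EIF1, EIF2D, EIF3F, EIF3H, EIF3L, EEF1A1 and EEF1B2. The fallers were EIF4E, EIF4G1, EIF4ENIF1, EIF3B, EIF2B5, EIF5A, EIF5B, EIF1AD and EEF2KMT. Under each of the 3 rescalings, 7 of the 10 and 7 of the 9 passed 1.2-fold in all 4, and EIF2D, EIF3H, EIF3L, EIF4E and EIF4ENIF1 did not under at least 1 of them. Those that passed are 11.5% of the 61 members in each direction, near the shares of all genes, which were not taken again after rescaling. Because the comparisons of a line share DMSO, the list is a selection by rule and not a count of independent events.

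**Figure D3:**
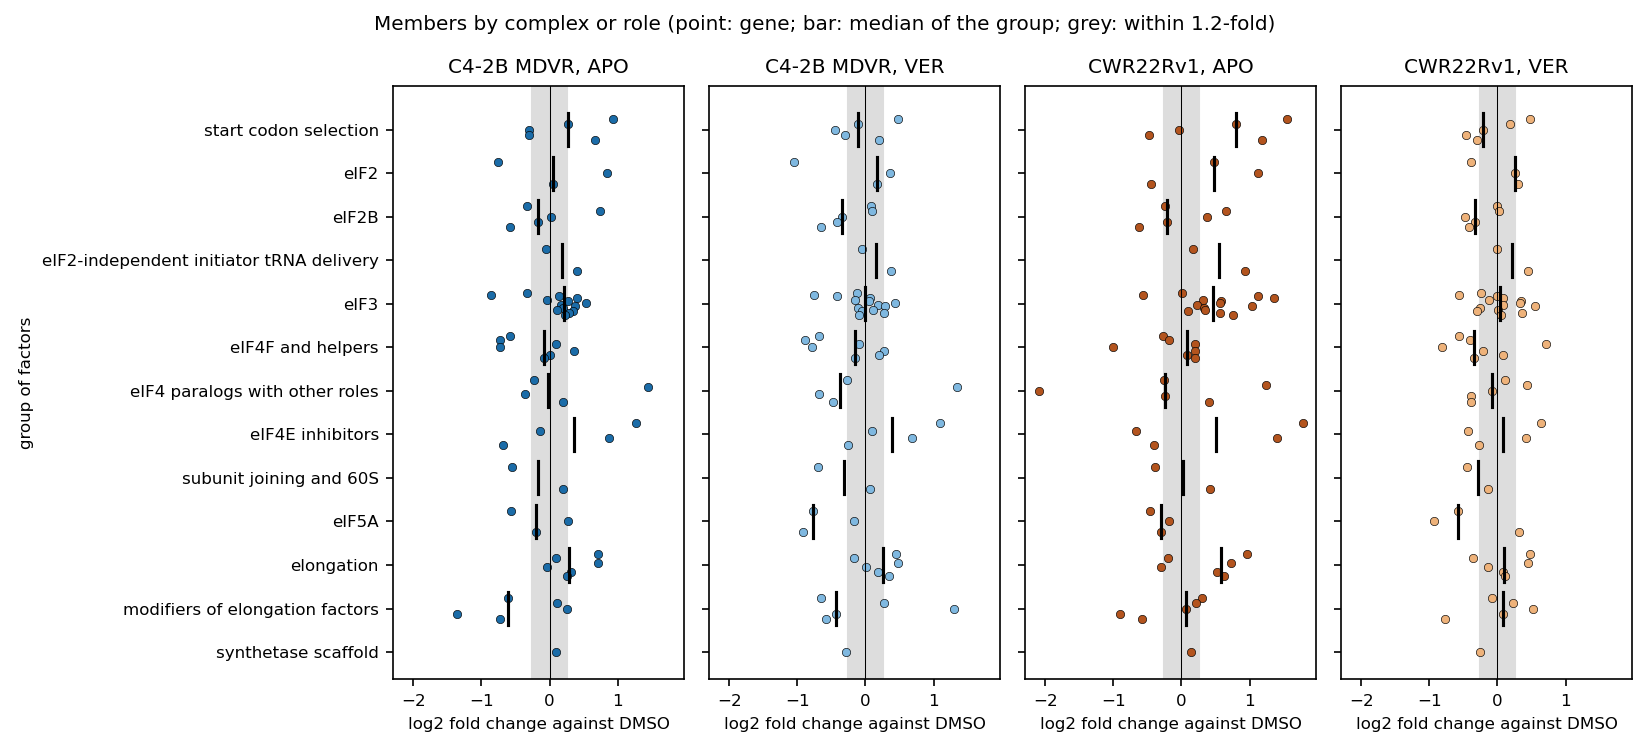
Log2 fold change against DMSO (x axis) of the members in groups by complex or role (y axis), 1 panel per comparison, with points for genes, bars for group medians of at least 2 genes and the range within 1.2-fold in grey. EIF1AY is not plotted, and most groups hold genes on both sides of 0, as the eIF2 and eIF4E inhibitor groups show.

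The DMSO, APO and VER libraries of C4-2B MDVR are separate from those of CWR22Rv1, so the same inhibitor can be set side by side in the 2 lines. Across 61 members the log2 differences with APO had a Pearson correlation of 0.83 (Spearman 0.82) between the lines, with 17 up in both (27.9%), 10 down in both (16.4%) and 2 opposite (3.28%). Over 7774 genes averaging 10 FPKM or more the correlations were 0.63 and 0.60, with 21.8% up in both, 19.8% down in both and 6.59% opposite. With VER the members gave 0.70 (Spearman 0.75), with 11 up in both (18.0%), 15 down in both (24.6%) and 1 opposite (1.64%). The 7774 genes gave 0.59 and 0.65, with 17.4% up in both, 19.3% down in both and 3.73% opposite. Unlike these genes, the members were not limited to a mean of 10 FPKM or more. Genes of 1 library are not independent of each other, so these correlations are descriptions, and the lines share inhibitor and preparation.

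**Figure D4:**
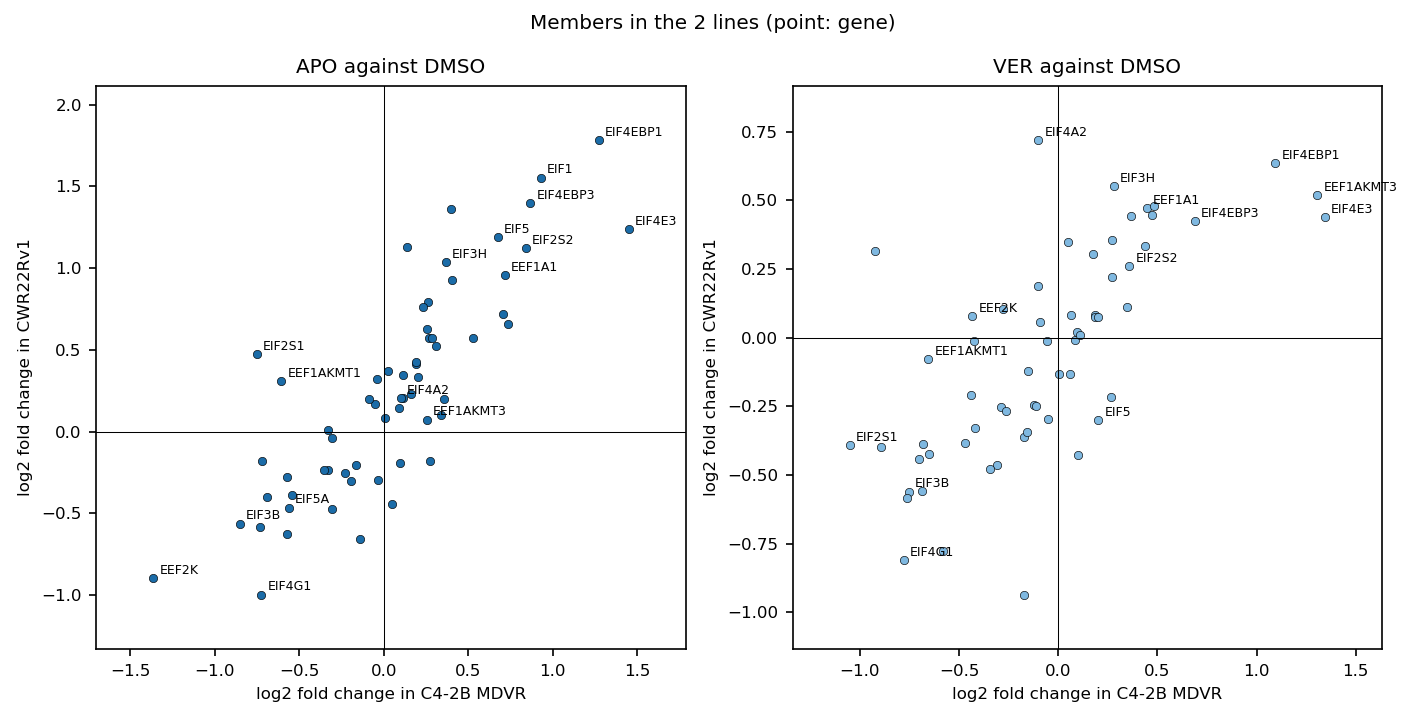
Log2 fold change against DMSO in C4-2B MDVR (x axis) and in CWR22Rv1 (y axis) for each member compared in both, APO on the left and VER on the right, with 1 point per gene. Most points lie at the upper right or lower left, and EIF2S1 with APO lies at the upper left (-0.75 and 0.47).

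A TOP start, a C at the annotated start followed by at least 4 C or T, was found for 13 of 51 matched members (25.5%) and for 1404 of 27305 genes (5.14%). These were EEF1A1, EEF1B2, EEF2, EIF2A, EIF2D, EIF2S3, EIF2S3B, EIF3D, EIF3F, EIF3K, EIF3M, EIF4A2 and EIF4B, of which EIF2S3B was too low to be compared. With APO in C4-2B MDVR, 5 of 12 members with a TOP start rose (41.7%) and 0 fell, and 9 of 36 without it rose (25%) and 14 fell (38.9%). All genes compared there stand at 37.7% and 35.4%, as above. With VER in C4-2B MDVR it was 5 and 0 of 12, against 5 and 20 of 36. In CWR22Rv1, 7 of 12 rose and 1 fell with APO, against 14 and 12 of 37 without a TOP start. VER there gave 6 and 1 of 12, against 4 and 18 of 37. All genes compared stand at 35.6% and 34.9% with VER in C4-2B MDVR. For CWR22Rv1 they stand at 35.6% and 39.2% with APO and at 32.1% and 32.3% with VER. The median of members with a TOP start exceeded that of members without it by 0.36, 0.47, 0.49 and 0.46 in the 4 comparisons. Rescaling a library shifts both medians nearly alike, so the gap says nothing of the scaling.

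Protein-coding genes with a TOP start outside the members and the ribosomal proteins rose in 37.2% and fell in 32.8% of cases with APO in C4-2B MDVR, beside 35.4% and 34.4% of such genes without it. With VER in CWR22Rv1 the shares were 27.4% and 31.2%, beside 27.9% and 31.8%. In the order of the 4 comparisons, these genes with a TOP start had medians of 0.01, 0.03, 0.04 and -0.02, beside 0.0002, -0.01, -0.0008 and -0.03 for such genes without it. Of 48 ribosomal protein genes with a TOP start, 44 rose with APO in each line, and 15 and 26 rose with VER in C4-2B MDVR and CWR22Rv1. Of all genes compared, 37.7% and 35.6% rose with APO in C4-2B MDVR and CWR22Rv1, and 35.6% and 32.1% with VER. The annotated start is 1 base of a window and may not be the start used in these cells. Within 20 bases on either side, the same letters began somewhere in 36 of 51 members (70.6%) and in 56.0% of all genes. A list of 9 members known as TOP mRNAs (EEF1A1, EEF1B2, EEF1D, EEF1G, EEF2, EIF3E, EIF3F, EIF3H and EIF4B) gave medians of 0.31, 0.28, 0.57 and 0.33, with 6, 5, 7 and 5 risers and 0, 0, 1 and 0 fallers. In the same order, 37.7%, 35.6%, 35.6% and 32.1% of all genes compared rose and 35.4%, 34.9%, 39.2% and 32.3% fell. Only 5 of these 9 members were among the 13 above, since the others had no matched window or no TOP start.

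**Figure D5:**
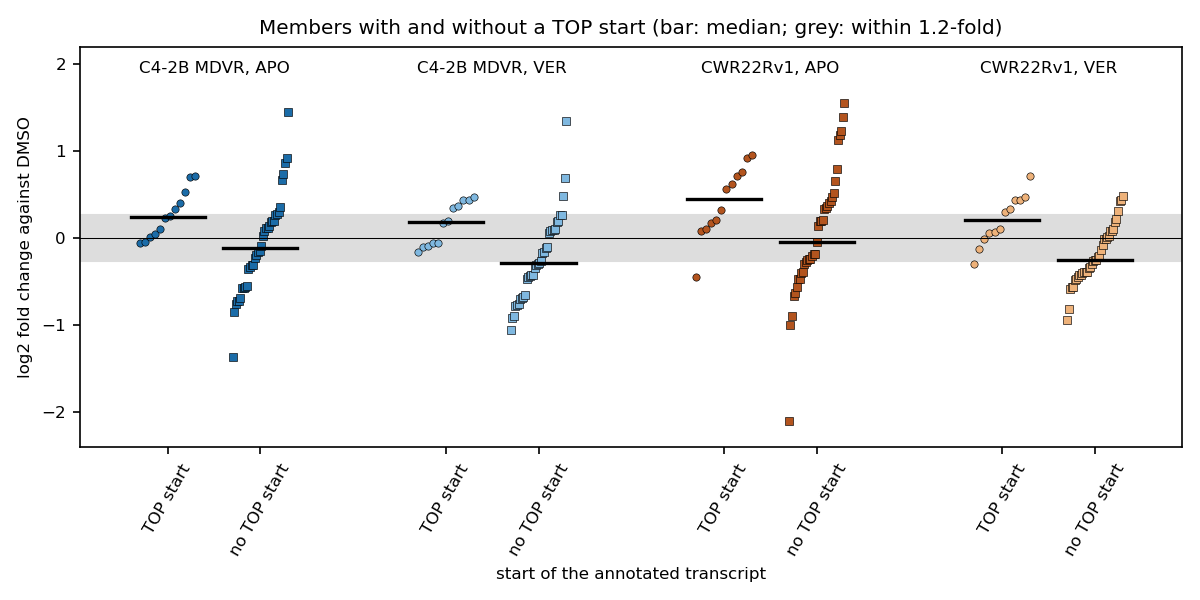
Log2 fold change against DMSO (y axis) of members with a TOP start (circles) and without one (squares) in the 4 comparisons, with bars for medians and the range within 1.2-fold in grey. The medians with a TOP start are 0.24, 0.19, 0.45 and 0.21, and those without are -0.11, -0.28, -0.04 and -0.25; EIF1AY is left out.

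VER and APO were also set against each other at the same dose and time. In C4-2B MDVR, 4 of 61 members were higher with VER and 19 lower, beside 28.5% and 32.5% of all genes, but after rescaling to the same sum it was 10 and 8. In CWR22Rv1, 8 of 63 members were higher with VER and 31 lower, beside 37.3% and 34.5% of all genes. EIF5 differed most among members above 1 FPKM in CWR22Rv1, by -1.49, followed by EIF3CL (-1.28), EIF4EBP1 (-1.15) and EIF3C (-1.14). EIF1 (-1.07), EIF2S1 (-0.87) and EIF2S2 (-0.86) were lower with VER as well. In C4-2B MDVR EIF4EBP1 differed by -0.18 between the inhibitors, within 1.2-fold. EEF2K was higher with VER in both lines, by 0.93 and 0.98, and EEF1AKMT3 by 1.05 and 0.45.

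The lines themselves differed under DMSO. Of 63 members compared, 7 were higher and 38 lower in CWR22Rv1 than in C4-2B MDVR, beside 43.2% and 39.2% of all genes. The median of the members was -0.40 and that of all genes 0.05. At a mean of 10 FPKM or more, 55 members had a median of -0.44, beside -0.12 for all genes of that level. EIF5A2 (-2.11), EEF1A2 (-1.75), EIF4E3 (-1.52) and EEF2KMT (-1.48) were the lowest in relation to C4-2B MDVR, and EEF1AKMT1 (1.69) was the highest of those above 1 FPKM in both lines. EIF4E differed by 0.06 and EIF5B by -0.01. The lines also differ in enzalutamide in the medium and in mitochondrial share, which cannot be told apart from the line. Rescaled outside the mitochondrial chromosome, 9 members were higher and 33 lower.

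Genes outside the members that regulate the same steps were described from 2 lists. Among the 4 eIF2 kinases and the 2 regulatory subunits of the eIF2 phosphatase, 4 rose and 1 fell with APO in C4-2B MDVR, and 2 rose and 2 fell with VER. In CWR22Rv1, 4 rose and 0 fell with each inhibitor. Of all genes compared, 37.7% rose and 35.4% fell with APO in C4-2B MDVR, and 35.6% and 34.9% with VER. The shares in CWR22Rv1 were 35.6% and 39.2% with APO and 32.1% and 32.3% with VER. EIF2AK3 (PERK), the kinase of the endoplasmic reticulum, was 9.67, 16.0 and 24.3 FPKM in C4-2B MDVR with DMSO, APO and VER, and 6.69, 12.9 and 10.2 FPKM in CWR22Rv1. It was higher in every treated library. PPP1R15A (GADD34), which brings the phosphatase to eIF2, was 2.197, 11.5 and 4.52 FPKM in C4-2B MDVR and 10.1, 94.5 and 19.1 FPKM in CWR22Rv1. It rose by 2.34 and 1.01 in C4-2B MDVR and by 3.21 and 0.92 in CWR22Rv1, with the APO library highest in each line. PPP1R15B, the constitutive subunit, rose with APO in both lines, by 1.03 and 0.40, and by 0.42 with VER in CWR22Rv1. EIF2AK4 (GCN2), the sensor of uncharged tRNA, was 20.3, 9.60 and 13.6 FPKM in C4-2B MDVR and 17.6, 22.0 and 26.2 FPKM in CWR22Rv1. Both treated libraries were below DMSO in C4-2B MDVR and above it in CWR22Rv1. EIF2AK1 stayed within 1.2-fold throughout, and EIF2AK2 (PKR) was 0.34 and -0.28 in C4-2B MDVR and within 1.2-fold in CWR22Rv1. Both EIF2AK2 calls were lost: 0.195 after rescaling to the same sum (APO) and -0.2595 at a median ratio of 1 (VER). With APO in CWR22Rv1, rescaling to the same sum outside the mitochondrial chromosome gave 0.17 for EIF2AK4 and 0.25 for PPP1R15B, both within 1.2-fold. PPP1R15B with VER in C4-2B MDVR passed 1.2-fold at a median ratio of 1 (0.264).

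PDCD4, a protein that blocks eIF4A, was 38.2, 122 and 84.7 FPKM in C4-2B MDVR with DMSO, APO and VER. Its values in CWR22Rv1 were 32.1, 58.0 and 38.6 FPKM. The rises were 1.67, 1.15, 0.85 and 0.26, the last just past the threshold and within 1.2-fold (0.20) after rescaling to the same sum. PDCD4 belongs to a list of 14 further translation factors and regulators, such as PABPC1, the MNK kinases and the release factors. Of these 4 rose and 3 fell with APO in C4-2B MDVR, and 2 and 3 with VER there. CWR22Rv1 gave 9 and 1 with APO, and 2 and 2 with VER. In the same order, 37.7%, 35.6%, 35.6% and 32.1% of all genes compared rose and 35.4%, 34.9%, 39.2% and 32.3% fell.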

How the data were processed

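RNA-seq of 2 prostate cancer lines, C4-2B MDVR and CWR22Rv1 (DMSO, 10 µM APO or 10 µM VER for 48 h), was analysed from gene tables. Per the labels, the authors aligned reads with HISAT and ran Cufflinks and Cuffnorm on GRCh38, and they deposited FPKM values normalized between libraries; versions are not given in the sources used here. The study's methods also name StringTie. The labels describe a stranded kit from KAPA and the study's methods an Illumina TruSeq kit. How counting used strand is not stated, so reads of overlapping genes on opposite strands may not be told apart. FPKM are not counts. The study's methods state an approximate number of reads per sample, but the read total of each library was not used here, so no interval is given. Columns without a sample numbered 0.

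Identifiers were matched to GENCODE 29 (57047 of 60658), and promoter windows were those of RefSeq. Differences are of log2(FPKM + 0.1), which understates changes of low genes, and a gene was compared if any of its line's 3 libraries (between lines, either of the 2 DMSO libraries) exceeded 0.1 FPKM. Past 1.2-fold was called a change. With 1 library per condition no test was made. The genes named are EIF4EBP1, those past 1.2-fold in 1 direction in all 4 comparisons with DMSO, the 3 largest rises and falls of each comparison above a mean of 1 FPKM, paralog pairs, eIF2, eIF2B and elongation factors, and the eIF2 kinases, phosphatase subunits and PDCD4; other members named with values were chosen after their values were seen. The members and lists were chosen with earlier results of these data known. Alternatives were pseudocounts of 0.01 and 1, 3 filters, 3 rescalings (to a median ratio of 1, to the same sum, and to the same sum outside the mitochondrial chromosome) and thresholds of 1.5-fold and 2-fold. The search within 20 bases of the start and the rescaling of the TOP start groups and of the members called in all 4 comparisons were added after seeing the data. Ratios of eIF2 subunits and of EIF4EBP1 over EIF4G1 were not planned in advance. Tested on simulated data for APO in C4-2B MDVR, the code recovered 200 of 200 changed genes among 17603. The simulated libraries were noise-free copies of 1 library, and each change was set past 1.2-fold. Full recovery was therefore fixed in advance and tells nothing of the accuracy of calls in the real libraries. Python 3.11.15, pandas 2.3.3, numpy 2.4.6 and matplotlib 3.10.9 were used. Protein sequences were not used here. Some of the cell type markers looked at are not reported here.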

Additional observations from a re-analysis of the deposited data

Results flagged for a closer look

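3 members passed 1.2-fold in opposite directions in the 2 lines under the same inhibitor. In no case was the difference between the lines tested, since each condition has 1 library. Of 61 members this is 3.28% with APO and 1.64% with VER, beside 6.59% and 3.73% of 7774 genes averaging 10 FPKM or more. The members were not limited to that level, and EEF1AKMT1 and EIF5AL1 did not reach it. EIF2S1 differed from DMSO by -0.75 with APO in C4-2B MDVR and by 0.47 in CWR22Rv1. EEF1AKMT1 differed by -0.61 with APO in C4-2B MDVR, from 2.33 FPKM to 1.49 FPKM, and by 0.31 in CWR22Rv1, from 7.74 FPKM to 9.60 FPKM. EIF5AL1 differed by -0.92 with VER in C4-2B MDVR and by 0.31 in CWR22Rv1, at levels of at most 0.22 FPKM.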

How the results depend on the processing

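No paired analysis was possible because each condition has 1 library and no test was made. No direction of a called value turned under any of the alternatives. The 2 sums moved APO most: after rescaling to the same sum, and to the same sum outside the mitochondrial chromosome, the median of the members with APO was -0.0482 and -0.0610 in C4-2B MDVR and 0.32 and 0.0482 in CWR22Rv1. Genes with a mean above 1 FPKM shifted with them, from a median of 0.02 to -0.13 and -0.14 with APO in C4-2B MDVR and to 0.11 and -0.15 in CWR22Rv1. Members up with APO in C4-2B MDVR numbered 10 under both sums, and VER against APO there gave 10 and 12 up and 8 and 8 down. The split for APO in CWR22Rv1 was 34 up and 13 down after rescaling to the same sum, and VER against APO in CWR22Rv1 then gave 6 up and 44 down.

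With thresholds of 1.5-fold and 2-fold, members up numbered 9 and 2 (APO) and 4 and 3 (VER) in C4-2B MDVR, and 16 and 9 (APO) and 2 and 0 (VER) in CWR22Rv1. Members down numbered 8 and 1 (APO) and 11 and 1 (VER) in C4-2B MDVR, and 5 and 1 (APO) and 3 and 0 (VER) in CWR22Rv1. VER against APO gave 2 and 1 up and 3 and 0 down in C4-2B MDVR, and 4 and 1 up and 16 and 5 down in CWR22Rv1. The lines under DMSO gave 4 and 3 up and 24 and 11 down. EIF4EBP1 passed 2-fold in 3 comparisons and not with VER in CWR22Rv1 (0.63). Stricter thresholds lower counts by construction.

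Of 1920 values of single genes against DMSO, 1657 kept their side of the threshold, 243 lost it, 20 gained it and 0 turned. The filters cannot change the value of a gene that is kept, and a gene within 1.2-fold cannot pass a stricter threshold. Part of the 1657 was therefore fixed in advance and is no measure of stability. Of 480 medians of gene groups 70 moved by more than 0.1. Without replicates or the read total of each library, counting error and differences near 1.2-fold cannot be judged.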
